A study of Homo sapiens and Mus musculus with 8 samples.

Results

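KM12 and LS174T are human colorectal cancer cell lines, and both were grown as xenograft tumors from which RNA was sequenced. The comparison described here sets the KM12 tumors against the LS174T tumors: 2 libraries a line, 4 of the 8 in the series. The other 4 libraries are cultures of the same lines in the same states. A gene was kept where at least 2 of the 4 tumor libraries held at least 1 CPM (counts scaled to the library total), which left 15533 of the 60483 genes in the deposited count table. The study was set up to ask whether tumors that carry an activating GNAS mutation depend on that gene, which encodes the stimulatory G protein alpha subunit.

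The 2 KM12 tumors are the parental line, labelled with the GNAS genotype R201H, and a GNAS knockout of it. The 2 LS174T tumors are both labelled GNAS R201H, and are marked Dox (-) and Dox (+). The labels do not state what doxycycline induces, so in LS174T the drug and the GNAS state cannot be told apart. Each of these 4 groups is 1 library. The labels do not say how many animals or clones stand behind a library, and host strain and age are not given in the sources used here. GNAS states were pooled within each line. The libraries of a line are therefore not replicates of one condition, and both values are printed in place of a mean and an SD. The p-values measure only the spread between these libraries. Values of a line are always given in the order parental, knockout for KM12 and Dox (-), Dox (+) for LS174T.

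Among colorectal lines, LS174T is known for goblet-like mucin secretion and for a stabilised beta-catenin, the transcriptional coactivator of the Wnt pathway that keeps intestinal crypt cells in a progenitor state. Xenograft tumors outgrow their blood supply, and low oxygen lets hypoxia-inducible factors (HIF) accumulate and switch on genes for glucose use, acid disposal and vessel growth.

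The tumor libraries held 15924846 and 18662450 counts for KM12 and 23124811 and 18700935 counts for LS174T. The cultures were deeper, at 31868711 to 37735085 counts. Mitochondrially encoded transcripts took 8.66% and 7.96% of the counts in the KM12 tumors and 5.23% and 5.5% in the LS174T tumors. The tumor samples carry the label Mus musculus, but the table holds 0 mouse gene identifiers, and how mouse reads were handled is not given in the sources used here. All 10 markers of colorectal epithelium were detected in all 4 libraries, with a summed level of 6852 and 8657 CPM in KM12 and 9082 and 6754 CPM in LS174T. The 6 endothelial markers summed to 0.90 to 1.75 CPM over the 4 libraries, with 3, 3, 3 and 1 of them at 0. The 10 fibroblast markers summed to 285.1 and 14.1 CPM in KM12 and 4.14 and 4.28 CPM in LS174T, with 2, 2, 3 and 4 of them at 0. The fibroblast sum of the KM12 parental tumor was mostly COL3A1 (3841 of 4608 counts), at 238 CPM against 0.16 to 0.32 CPM in the other 3 libraries. The 7 leukocyte markers summed to 265 and 838 CPM in KM12 and 10.1 and 8.61 CPM in LS174T, of which LYZ (lysozyme) made up nearly all in KM12, while PTPRC, the pan-leukocyte antigen, had 0, 0, 1 and 0 counts.

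The lines differed at many genes. In the xenografts 3517 of the 15533 genes passed an adjusted p of 0.05 (22.6%, edgeR quasi-likelihood F test with Benjamini-Hochberg adjustment). KM12 was higher at 1484 genes (9.55%) and lower at 2033 (13.1%). Of these, 806 were also at least 4-fold higher in KM12 (5.19%) and 1168 at least 4-fold lower (7.52%). The number of calls was lower without either LS174T library, in fits whose spread came from the KM12 pair alone. Without LS174T Dox(-) 947 genes passed, and without LS174T Dox(+) 1119 did. Leaving out the parental or the knockout KM12 library gave 4251 and 4723. A block for GNAS state pairs KM12 parental with LS174T Dox(+) and KM12 knockout with LS174T Dox(-), and gave 3751. Throughout, a count of called genes is followed in parentheses by its value without a library where that moves the count by more than 1.5 times. Xenograft counts of a list are to be read beside the 9.55% of all genes called higher and the 13.1% called lower. A share near these is not a result about the list. In bulk tissue, fewer cells of a type and less RNA per cell cannot be told apart, and this holds for every difference below. Over the 11698 genes with a mean of 5 CPM or more, the median absolute log2 difference was 0.26 between the KM12 tumors, 0.25 between the LS174T tumors and 0.42 between the line means. Differences of at least 4-fold were seen at 1.69% of these genes within KM12, 0.35% within LS174T and 9.0% between the lines. Both libraries of one line lay above both of the other at 10057 of the 15533 genes (64.7%). Each statement below that the lines did not overlap is to be read beside that share. A gene below 1 CPM in both libraries of a line passed the filter through the other line alone, which fixed its direction.

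**Figure D1:**
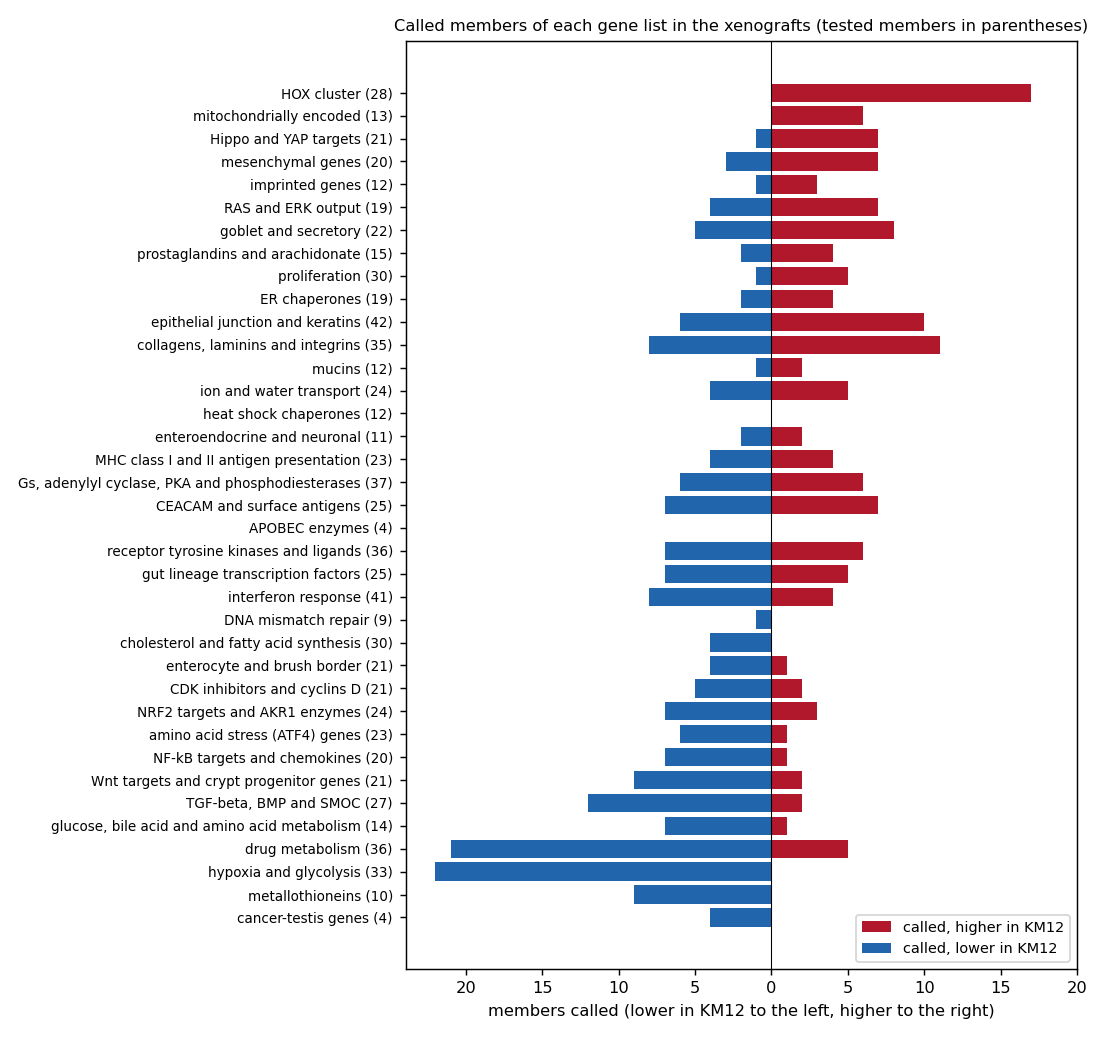
Members of each gene list that were called higher in KM12 (right) or lower in KM12 (left) in the xenografts, with the number of members tested in parentheses. Hypoxia and glycolysis has 22 of 33 tested members lower and 0 higher in KM12, and the HOX cluster has 17 of 28 higher and 0 lower.

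The cultures give the same line contrast in libraries that the xenograft test did not use. There, 9915 of the 15533 genes were called (63.8%), 4926 higher in KM12 and 4989 lower. Culture counts of a list are to be read beside these numbers and not beside the xenograft shares. The within-line spread was smaller in culture, at a median absolute log2 difference of 0.10 in KM12 and 0.11 in LS174T. Of the 3517 xenograft calls, 2717 were also called in the same direction in culture, which is 77.3% of the xenograft calls and 27.4% of the culture calls. Another 602 were not called in culture. The remaining 198 (5.63%) were called in opposite directions, 62 of them higher in KM12 as a tumor and 136 lower. A test of the change itself, the interaction of line and environment over all 8 libraries, called 2219 genes (14.3%). The line difference, KM12 minus LS174T, was greater in xenografts at 983 (6.33%) and smaller at 1236 (7.96%). Both words refer to the signed difference, so the gap between the lines may narrow, widen or reverse under either. With any 1 culture library left out, 559 to 695 genes were called in the interaction.

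**Figure D2:**
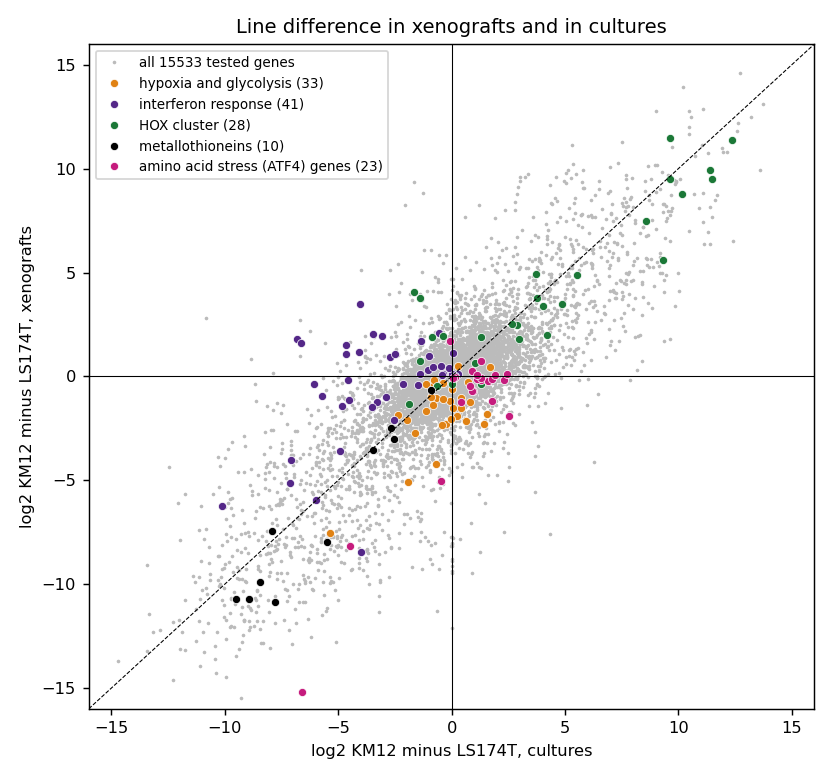
Line difference (log2 KM12 minus LS174T) of each of the 15533 genes in xenografts (y axis) against cultures (x axis), with members of 5 lists coloured. Metallothioneins and HOX genes lie near the diagonal, interferon response genes lie left of it, and ATF4 genes lie right of it (genes with 0 counts in a line sit at fitted values that depend on the prior count).

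GNAS, the gene that the study altered, was read first. GNAS was at 1499.8 and 985 CPM in KM12 and 647 and 763 CPM in LS174T (log2 difference 0.82 ± 0.25, adjusted p 0.055), and the line difference missed the threshold. Without the KM12 knockout library, in which the gene was edited, it passed at a log2 difference of 1.09 (adjusted p 0.0028), and it also passed by DESeq2 (adjusted p 0.023), with a block for GNAS state (0.036) and with no filter on low counts (0.0046). The knockout tumor kept counts of the gene, which do not show whether the protein is made. In culture GNAS was at 1020.2 and 271 CPM in KM12 and 636 and 1605 CPM in LS174T. CDKN2A (GRCh38 chr9:21967753-21995301), which encodes the cell-cycle inhibitor p16 and the p53 activator ARF, was at 97.0 and 111 CPM in KM12 and had 0 counts in both LS174T tumors, at least 1425-fold higher in KM12 (floor of 3 counts over both libraries, adjusted p 6.0e-05). Its neighbour CDKN2B, another inhibitor of the cyclin D kinases, was at 8.17 and 11.0 CPM in KM12 and 0.450 and 0.375 CPM in LS174T (log2 difference 4.51 ± 0.50, adjusted p 0.0012).

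Several genes were present in one line and without a count in the other. At 10 CPM or more in both tumors of one line and 0 counts in both of the other, there were 20 genes in KM12 and 72 in LS174T. In KM12 the largest after CDKN2A were FRK, a SRC-family kinase, at 44.0 and 73.9 CPM (at least 819.6-fold higher), and SLC7A2, a transporter of cationic amino acids, at 40.1 and 56.9 CPM (at least 670.5-fold). CPVL, a serine carboxypeptidase, followed at 52.7 and 40.7 CPM (at least 631-fold) and PLAAT5, a phospholipid-modifying acyltransferase, at 51.2 and 39.6 CPM (at least 613-fold). The zinc finger gene ZNF605 (at least 514-fold), the heparan sulfate sulfotransferase HS6ST2 (at least 425-fold) and the homeobox gene MEIS2 (at least 374-fold) also had no LS174T count. The death-associated kinase DAPK1 had 1884 against 2 counts, a ratio of 1100.0 toward KM12 (95% counting interval 304 to 9088), adjusted p 2.5e-04. Counts of a pair are given with KM12 first. The inhibitory G protein subunit GNAI1 had 2153 against 3 counts, a ratio of 838 toward KM12 (95% counting interval 286 to 4066), adjusted p 2.3e-04. Tenascin C (TNC), a matrix protein, had 1469 against 3 counts, a ratio of 572 toward KM12 (95% counting interval 195 to 2775), adjusted p 0.0015. CD109, a surface protein that binds TGF-beta, was at 154 and 235 CPM in KM12 and 0.270 and 0.375 CPM in LS174T (log2 difference 9.22 ± 0.40, adjusted p 5.3e-05), and THBS2, a matrix glycoprotein of the thrombospondin family, at 739.7 and 371 CPM in KM12 and 0.360 and 2.30 CPM in LS174T (log2 difference 8.73 ± 1.10, adjusted p 0.012). THBS2 missed the threshold with no filter on low counts (adjusted p 0.13).

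In LS174T the largest differences were at B4GALNT4, a glycosyltransferase, with 324 and 272 CPM (at least 3507-fold lower in KM12), and STC2, a secreted glycoprotein of the stanniocalcin family induced by stress, with 259 and 226 CPM (at least 2851-fold). BCAT1, which transaminates branched-chain amino acids, was at 136 and 124 CPM (at least 1528-fold), the homeobox gene EN1 at 45.0 and 81.5 CPM (at least 720.4-fold) and the prostaglandin D2 receptor gene PTGDR at 32.3 and 80.3 CPM (at least 634-fold). GPR15LG, which encodes a ligand of the receptor GPR15, was at 44.4 and 71.7 CPM (at least 664-fold). No KM12 tumor had a count of any of these. Many of the others lie on the X chromosome, which holds 24 of the 72 genes seen in LS174T only (33.3%), 3 of the 20 seen in KM12 only and 3.08% of all genes tested. They include ANOS1, which encodes an extracellular matrix glycoprotein, at 181 and 145 CPM (at least 1922-fold), MAGED1 (at least 1720.0-fold), SH3BGRL (at least 866-fold), ARMCX3 (at least 757-fold), RTL8A (at least 682-fold) and TMEM35A (at least 619.9-fold). Cancer-testis genes, which are normally silent outside the germ line, were tested at 4 of 36 listed members, and all 4 were lower in KM12. CTAG2, MAGEA6 and MAGEA3 had no KM12 count, so they passed the filter through LS174T alone, which fixed their direction. CTAG2, which encodes a relative of the NY-ESO-1 antigen, was at 128 and 77.7 CPM (at least 1228-fold), MAGEA6 at 80.0 and 93.2 CPM (at least 1005-fold) and MAGEA3 at 14.1 and 21.9 CPM (at least 206-fold). MAGEA3 and MAGEA6 are near-identical, and the split of reads between them is uncertain. The median log2 difference of the 4 was -8.83 with genes at 0 counts placed at their bound, and for the same reason it is not a result about the list.

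Hypoxia and glycolysis genes were called in 1 direction. Of the 33 tested, 22 (10 without LS174T Dox(-)) were lower in KM12 and 0 higher, beside 13.1% lower and 9.55% higher over all genes. The list's median log2 difference was -1.36, beside 0.00 over all tested genes. A core HIF site contains the letters ACGTG, and 18.5% of 35116 RefSeq promoters (250 bases before the start, GRCh38.p14, both strands) hold at least 1 match and 7.52% at least 2. Of the list, 30 genes had a promoter in that table, 17 of them with at least 1 match (56.7%), and 20 of their 51 promoters held one (39.2%). A match is only a run of letters, not a measured site. The promoters of CA9 (chr9:35673678-35673927, plus strand), BNIP3 (chr10:131981924-131982173, minus strand) and PGK1 (chrX:78103998-78104247, plus strand) are shown because these genes stand for the acid, mitochondrial and glycolytic arms of the response. Capitals mark ACGTG or its reverse complement, 1 match in CA9, 2 overlapping ones in BNIP3 and 2 in PGK1.
CA9: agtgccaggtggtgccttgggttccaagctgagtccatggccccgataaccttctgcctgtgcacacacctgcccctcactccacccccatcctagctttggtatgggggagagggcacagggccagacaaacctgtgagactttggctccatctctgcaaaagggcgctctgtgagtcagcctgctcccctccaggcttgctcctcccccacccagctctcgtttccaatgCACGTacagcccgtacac
BNIP3: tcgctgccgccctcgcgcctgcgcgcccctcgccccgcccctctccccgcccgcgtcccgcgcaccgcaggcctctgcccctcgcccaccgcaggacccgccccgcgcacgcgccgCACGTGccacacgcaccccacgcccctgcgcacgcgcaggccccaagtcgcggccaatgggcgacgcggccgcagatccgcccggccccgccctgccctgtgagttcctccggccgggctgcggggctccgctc
PGK1: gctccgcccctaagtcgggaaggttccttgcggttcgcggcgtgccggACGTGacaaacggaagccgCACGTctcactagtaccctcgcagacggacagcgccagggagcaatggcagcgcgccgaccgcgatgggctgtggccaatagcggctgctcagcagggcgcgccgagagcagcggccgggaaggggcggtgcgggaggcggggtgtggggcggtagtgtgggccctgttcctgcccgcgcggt

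CA9, carbonic anhydrase 9, exports acid equivalents at the cell surface and is a textbook HIF target. It was at 3.90 and 11.3 CPM in KM12 and 259 and 253 CPM in LS174T (log2 difference -5.07 ± 0.55, adjusted p 0.0032). In culture it was at 0.251 and 0.0533 CPM in KM12 and 0.452 and 0.670 CPM in LS174T, so the high values are in the LS174T tumors alone among the 8 libraries. BNIP3, which marks mitochondria for autophagy, was at 1.86 and 1.38 CPM in KM12 and 332 and 278 CPM in LS174T (log2 difference -7.56 ± 0.30, adjusted p 5.3e-05). Its interaction of line and environment was -2.17, well short of the tumor difference, so BNIP3 was lower in KM12 in culture as well. Its KM12 tumors held under 2 CPM while its relative BNIP3L, with a similar role, was at 106 and 95.4 CPM in KM12 and 281 and 189 CPM in LS174T (log2 difference -1.22 ± 0.25, adjusted p 0.013). VEGFA, the main vessel growth factor, was at 644 and 419.7 CPM in KM12 and 2518 and 1158 CPM in LS174T (log2 difference -1.79 ± 0.43, adjusted p 0.037). In culture the order was the opposite, at 413 and 381 CPM in KM12 and 139 and 127 CPM in LS174T (log2 difference 1.58 ± 0.08, adjusted p 2.7e-07), and the interaction was -3.34 ± 0.51 (adjusted p 0.0079). ADM, the vasodilator adrenomedullin, was at 60.9 and 65.1 CPM in KM12 and 413 and 196 CPM in LS174T (log2 difference -2.27 ± 0.37, adjusted p 0.0074), and its interaction was -3.68 ± 0.49 (adjusted p 0.0047). ANGPTL4, a secreted lipase inhibitor, was at 1.42 and 1.64 CPM in KM12 and 41.3 and 16.1 CPM in LS174T (log2 difference -4.22 ± 0.54, adjusted p 0.0028), and NDRG1, a stress and hypoxia marker, at 153 and 337 CPM in KM12 and 2171 and 1103 CPM in LS174T (log2 difference -2.74 ± 0.53, adjusted p 0.023). None of these genes overlapped between the lines, which held at 64.7% of all tested genes. The calls for BNIP3L and VEGFA did not hold without the LS174T Dox(-) library (adjusted p 0.11 to 0.13). When either LS174T library was left out, NDRG1 did not pass (adjusted p 0.052 to 0.1). VEGFA missed the threshold with a block for GNAS state (adjusted p 0.1).

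The glucose arm was lower in KM12 at regulators and at some enzymes. PDK1, which keeps pyruvate out of mitochondria, was at 56.2 and 51.6 CPM in KM12 and 357 and 184 CPM in LS174T (log2 difference -2.33 ± 0.34, adjusted p 0.0044). Among kinases that make the glycolytic activator fructose 2,6-bisphosphate, PFKFB3 and PFKFB4 were lower. PFKFB3 was at 141 and 123 CPM in KM12 and 474 and 284 CPM in LS174T (log2 difference -1.52 ± 0.28, adjusted p 0.0096) and PFKFB4 at 38.6 and 40.2 CPM in KM12 and 184 and 115 CPM in LS174T (log2 difference -1.92 ± 0.27, adjusted p 0.003). The lactate-forming LDHA was at 898 and 886 CPM in KM12 and 2625 and 1941 CPM in LS174T (log2 difference -1.36 ± 0.21, adjusted p 0.0047), and the lactate exporter SLC16A3 at 68.0 and 34.2 CPM in KM12 and 262 and 174 CPM in LS174T (log2 difference -2.09 ± 0.39, adjusted p 0.013). The aldolase ALDOC was at 53.9 and 59.6 CPM in KM12 and 263 and 212 CPM in LS174T (log2 difference -2.07 ± 0.22, adjusted p 9.9e-04), with an interaction of -2.02 ± 0.21. HK2, PFKL, PGK1 and ENO1, which catalyse steps from glucose phosphorylation to enolase, were also called lower, with PGK1 at 699.7 and 494 CPM in KM12 and 1446 and 1103 CPM in LS174T (log2 difference -1.09 ± 0.25, adjusted p 0.019). The housekeeping enzymes GPI, PFKP, ALDOA, TPI1, GAPDH, PGAM1 and PKM were not called, nor were the glucose transporter SLC2A1 (322 and 249 CPM in KM12 and 749 and 413 CPM in LS174T, log2 difference -1.03 ± 0.32, adjusted p 0.062) and the collagen prolyl hydroxylases P4HA1 and P4HA2. In culture the list did not run 1 way, with 8 members higher and 16 lower in KM12. The interaction called 13 of the 33 smaller in xenografts (8 without the KM12 knockout culture, 7 and 8 without the LS174T Dox(-) and Dox(+) cultures) and 2 greater (1 without the KM12 parental or LS174T Dox(-) xenograft, 0 without the LS174T Dox(+) xenograft or any 1 culture library). Within LS174T, VEGFA, ADM, NDRG1 and PDK1 were higher in the Dox (-) tumor than in the Dox (+) tumor. PFKFB3 and HK2 lost the calls when the LS174T Dox(-) library was left out (adjusted p 0.072 to 0.079). Leaving out either LS174T library ended the calls for SLC16A3 and PGK1 (adjusted p 0.062 to 0.15). ENO1 did not pass the test without any 1 of the 4 libraries (adjusted p 0.085 to 0.24). ENO1 missed the threshold with a filter at 5 CPM (adjusted p 0.054) and with a block for GNAS state (adjusted p 0.082).

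**Figure D3:**
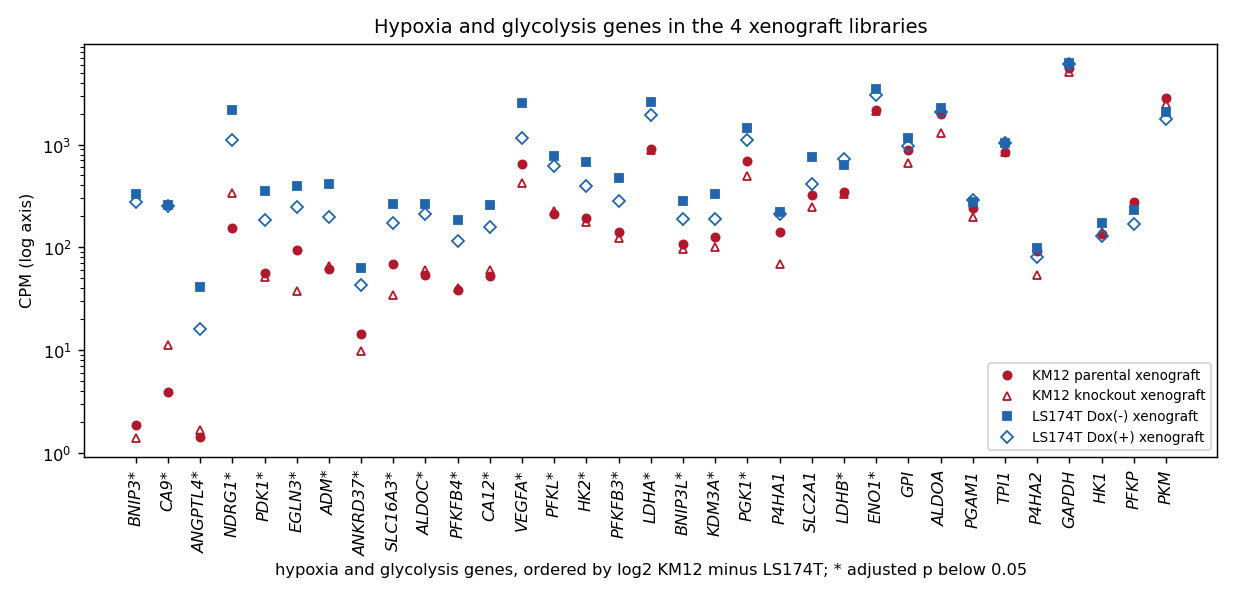
Level of the 33 tested hypoxia and glycolysis genes in each of the 4 tumor libraries (CPM, log axis), with an asterisk at the 22 called lower in KM12. At these 22 genes both LS174T tumors lie above both KM12 tumors, while the uncalled enzymes such as GAPDH and ALDOA lie close together.

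Metallothioneins are small cysteine-rich proteins that hold zinc and copper, and most are encoded in 1 cluster on chromosome 16. The list also holds the zinc exporter SLC30A1, and 10 of its genes were tested. All 9 metallothioneins among them were lower in KM12, and SLC30A1 was not called. The median log2 difference of the 10 was -5.22 with genes without a KM12 count placed at their bound. In culture all 10 genes of the list were lower in KM12. The metal-responsive factor MTF1 reads a core of the letters TGCACNC or TGCGCNC. At least 1 such match on either strand is held by 24.8% of the 35116 promoters, at least 4 by 0.37%, and at least 1 by all 5 metallothionein promoters in the table. The promoters of MT1X (chr16:56682220-56682469, plus strand), MT2A (chr16:56608334-56608583, plus strand) and MT1H (chr16:56669564-56669813, plus strand) are shown because they span the range from detected in both lines to no count in KM12. Capitals mark the matches and their reverse complements, 4 in MT1X, 7 in MT2A and 8 in MT1H.
MT1X: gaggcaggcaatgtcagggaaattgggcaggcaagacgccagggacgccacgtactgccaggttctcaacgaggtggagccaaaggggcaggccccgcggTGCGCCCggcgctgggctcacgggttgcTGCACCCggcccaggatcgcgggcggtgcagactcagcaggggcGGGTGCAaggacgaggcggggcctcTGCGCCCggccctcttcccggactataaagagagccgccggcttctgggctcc
MT2A: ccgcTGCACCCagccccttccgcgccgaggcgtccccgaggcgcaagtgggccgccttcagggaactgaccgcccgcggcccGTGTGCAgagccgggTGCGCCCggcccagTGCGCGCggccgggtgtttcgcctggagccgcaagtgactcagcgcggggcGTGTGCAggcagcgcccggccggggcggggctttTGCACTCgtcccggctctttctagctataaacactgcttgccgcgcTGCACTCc
MT1H: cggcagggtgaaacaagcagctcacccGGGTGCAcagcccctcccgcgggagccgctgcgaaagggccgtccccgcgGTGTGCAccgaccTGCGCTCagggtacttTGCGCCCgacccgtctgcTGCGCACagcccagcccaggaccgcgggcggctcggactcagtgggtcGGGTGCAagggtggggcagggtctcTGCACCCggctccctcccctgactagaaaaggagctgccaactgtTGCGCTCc

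MT1E was at 1.05 and 1.11 CPM in KM12 and 164 and 219.7 CPM in LS174T (log2 difference -7.46 ± 0.30, adjusted p 5.3e-05), MT1X at 13.9 and 10.1 CPM in KM12 and 83.8 and 106 CPM in LS174T (log2 difference -2.99 ± 0.26, adjusted p 5.0e-04) and MT1F at 1.48 and 1.06 CPM in KM12 and 12.7 and 16.6 CPM in LS174T (log2 difference -3.53 ± 0.43, adjusted p 0.0018). MT2A, the most widely expressed member in most tissues, was at 34.1 and 16.9 CPM in KM12 and 106 and 184 CPM in LS174T (log2 difference -2.50 ± 0.44, adjusted p 0.012). Both LS174T tumors were above both KM12 tumors at each. MT1G had 2 against 4290 counts, a ratio of 1837 toward LS174T (95% counting interval 508 to 15180.0), adjusted p 5.3e-05. MT1H, MT1L, MT1A and MT3 had no KM12 count and were at least 139-fold, at least 125-fold, at least 73.4-fold and at least 18.8-fold lower. These genes and MT1G passed the filter through LS174T alone, which fixed their direction. SLC30A1, the zinc exporter that the same factor controls, was at 29.6 and 44.7 CPM in KM12 and 67.9 and 47.7 CPM in LS174T (log2 difference -0.64 ± 0.29, adjusted p 0.16). MT1 paralogs share sequence, and reads may be split between them. The call for MT2A did not hold without either LS174T library (adjusted p 0.051 to 0.081).

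HOX genes encode homeodomain factors that keep the position of a cell along the body axis, in clusters A to D. Of 39 genes, 28 were tested, and 17 (6 without LS174T Dox(-), 7 without LS174T Dox(+)) were higher in KM12 and 0 (1 without KM12 parental) lower, with a median log2 difference of 3.44. A member below 1 CPM in both LS174T tumors passed the filter through KM12 alone, which fixed its direction. This holds for members without an LS174T count and for HOXD4, HOXC6 and HOXB4. The count of 17 and the median include such members and are not independent of the filter. In the D cluster, HOXD8 (chr2:176129694-176132695) was at 18.2 and 16.5 CPM and HOXD9 (chr2:176122720-176124937) at 19.8 and 17.4 CPM in KM12, with 0 counts in LS174T, which puts them at least 236-fold and at least 252-fold higher. HOXD1 (4.45 and 4.98 CPM, at least 64.6-fold) had no LS174T count, and HOXD4, at 5.69 and 5.35 CPM in KM12, had 193 against 1 counts, a ratio of 225 toward KM12 (95% counting interval 40.0 to 8945), adjusted p 0.0014. In the C cluster, HOXC10 (6.87 and 2.75 CPM, at least 63.4-fold) and HOXC11 (5.13 and 7.84 CPM, at least 89.9-fold) had no LS174T count, and HOXC6 was at 7.98 and 3.65 CPM in KM12 and 0.315 and 0.0535 CPM in LS174T (log2 difference 4.88 ± 0.83, adjusted p 0.0067). The A cluster was expressed in both lines at its 5-prime end, where HOXA10, HOXA11 and HOXA13 did not pass and HOXA9 was at 93.0 and 88.5 CPM in KM12 and 55.1 and 59.8 CPM in LS174T (log2 difference 0.66 ± 0.19, adjusted p 0.046). The anterior A genes were lower in LS174T. HOXA5 was at 56.2 and 26.2 CPM in KM12 and 3.51 and 4.39 CPM in LS174T (log2 difference 3.38 ± 0.43, adjusted p 0.0027) and HOXA6 at 16.5 and 10.0 CPM in KM12 and 0.855 and 1.07 CPM in LS174T (log2 difference 3.78 ± 0.47, adjusted p 0.002). In the B cluster, HOXB7 was at 32.2 and 18.5 CPM in KM12 and 8.91 and 4.44 CPM in LS174T (log2 difference 1.92 ± 0.45, adjusted p 0.024) and HOXB4 at 5.94 and 1.91 CPM in KM12 and 0.0900 and 0.161 CPM in LS174T (log2 difference 4.92 ± 0.85, adjusted p 0.007).

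HOX genes within KM12 were not uniform. HOXB8 was at 27.7 and 0.529 CPM and HOXB6 at 74.8 and 10.4 CPM in the parental and the knockout tumor, and neither was called between lines. HOXB13, which marks the distal colon and rectum, was at 4.39 and 2.28 CPM in KM12 and 10.5 and 6.47 CPM in LS174T (log2 difference -1.35 ± 0.50, adjusted p 0.096). In culture 20 HOX genes were higher in KM12 and 7 lower. When either LS174T library was left out, HOXC10, HOXC6, HOXA5, HOXB7 and HOXB4 did not pass (adjusted p 0.054 to 0.16). HOXA9 lost the call when either LS174T library or the KM12 parental library was left out (adjusted p 0.09 to 0.23). Leaving out the LS174T Dox(-) library ended the call for HOXA6 (adjusted p 0.057). HOXA9 missed the threshold with no filter on low counts (adjusted p 0.051).

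**Figure D4:**
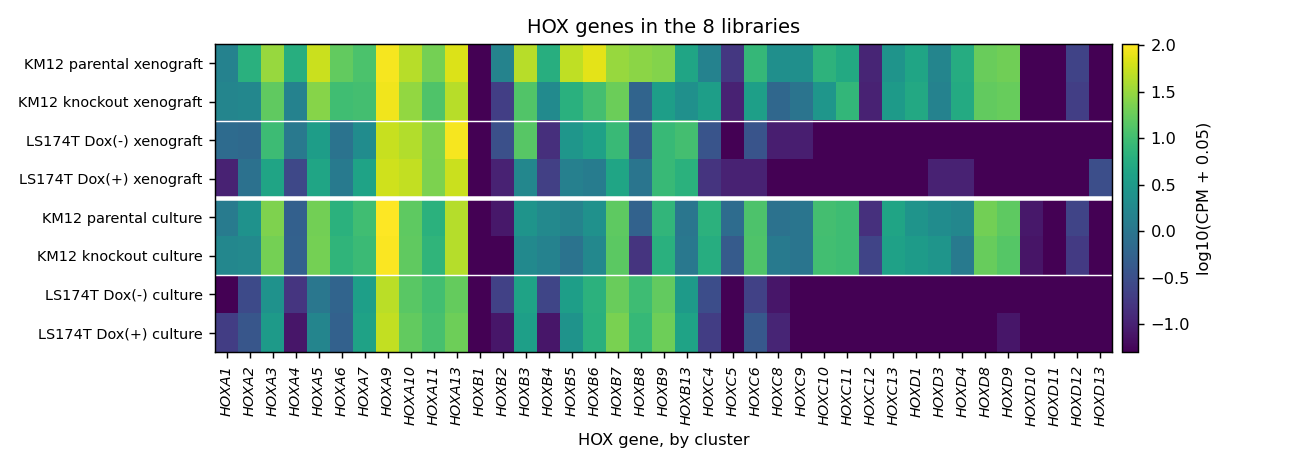
Level of 39 HOX genes (columns, by cluster) in all 8 libraries (rows), as log10(CPM + 0.05). The D cluster genes HOXD8 and HOXD9 are bright in the 4 KM12 libraries and at the dark floor in the 4 LS174T libraries, while HOXA9 to HOXA13 are present in both lines.

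Mucins were called in both directions. Of 12 tested, 2 (0 without LS174T Dox(-) or LS174T Dox(+)) were higher in KM12 and 1 (4 without KM12 parental, 5 without KM12 knockout, 0 without LS174T Dox(-)) lower. Over all genes 9.55% were higher and 13.1% lower, so the lower share with all libraries was not above that of all genes. MUC5AC (chr11:1157953-1201138), a gel-forming mucin typical of the stomach surface that mucinous colorectal tumors can switch on, was at 2214 and 6523 CPM in KM12 and 70.5 and 80.9 CPM in LS174T (log2 difference 5.85 ± 0.65, adjusted p 0.0055). In culture it was at 645 and 278 CPM in KM12 and 652 and 697 CPM in LS174T with no call (log2 difference -0.55 ± 0.54, adjusted p 0.46), and the interaction was 6.43 ± 0.83 (adjusted p 0.0062). MUC6, the gel-forming mucin of stomach glands, went the other way at 10.0 and 2.06 CPM in KM12 and 800.0 and 598 CPM in LS174T (log2 difference -6.86 ± 0.95, adjusted p 0.015). MUC2, the main mucin of colonic goblet cells, was at 222 and 789 CPM in KM12 and 1429 and 1066 CPM in LS174T (log2 difference -1.30 ± 0.66, adjusted p 0.25). It passed as lower in KM12 without the KM12 knockout library (adjusted p 3.2e-10) and with a block for GNAS state (adjusted p 0.044). MUC5B was at 216 and 2.17 CPM in the parental and the knockout KM12 tumor and was not called. MUC5AC did not pass the test without either LS174T library (adjusted p 0.054 to 0.072). The call for MUC6 did not hold without the LS174T Dox(-) library (adjusted p 0.058). MUC6 missed the threshold with a block for GNAS state (adjusted p 0.071) and with no filter on low counts (adjusted p 0.13).

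Of 22 goblet and secretory genes, 8 (2 without LS174T Dox(-), 3 without LS174T Dox(+)) were higher in KM12 and 5 (9 without KM12 knockout, 3 without LS174T Dox(-) or LS174T Dox(+)) lower. Higher were the trefoil peptide TFF2, at 127 and 308 CPM in KM12 and 18.6 and 15.4 CPM in LS174T (log2 difference 3.68 ± 0.47, adjusted p 0.0045), the goblet peptide SPINK4, at 205 and 344 CPM in KM12 and 7.20 and 14.2 CPM in LS174T (log2 difference 4.68 ± 0.46, adjusted p 0.0016), and REG4, a secreted lectin, at 686 and 2385 CPM in KM12 and 70.9 and 125 CPM in LS174T (log2 difference 3.97 ± 0.78, adjusted p 0.035). CREB3L1, a transcription factor of secretory cells, was at 291 and 507 CPM in KM12 and 43.0 and 41.6 CPM in LS174T (log2 difference 3.24 ± 0.31, adjusted p 8.1e-04), AGR2, the disulfide isomerase that folds mucins, at 2208 and 4003 CPM in KM12 and 639 and 704 CPM in LS174T (log2 difference 2.21 ± 0.30, adjusted p 0.0036), and B3GNT6, which makes the core 3 glycan of colonic mucin, at 8.54 and 19.7 CPM in KM12 and 0.135 and 0.696 CPM in LS174T (log2 difference 5.11 ± 0.82, adjusted p 0.0068). Each of these was higher in the knockout than in the parental KM12 tumor, and both were above LS174T. Lower in KM12 was ZG16, a goblet lectin, with 1 against 6810 counts, a ratio of 5833 toward LS174T (95% counting interval 1047 to 230400.0), adjusted p 5.3e-05. BEST2, a goblet cell anion channel, was at 0.433 and 0.265 CPM in KM12 and 96.3 and 86.6 CPM in LS174T (log2 difference -8.03 ± 0.33, adjusted p 5.3e-05), with an interaction of -7.28 ± 0.56, and SPDEF, a goblet maturation factor, at 12.9 and 16.7 CPM in KM12 and 23.9 and 40.0 CPM in LS174T (log2 difference -1.11 ± 0.32, adjusted p 0.048). ATOH1, the factor that commits cells to the secretory lineage, was not called (8.17 and 13.7 CPM in KM12 and 8.59 and 31.5 CPM in LS174T, log2 difference -0.87 ± 0.65, adjusted p 0.4), and TFF3 was not either. The list named for goblet cells therefore holds members called in both directions. Without either LS174T library the calls of TFF2, REG4, AGR2 and SPDEF were lost, in fits whose spread came from the KM12 pair alone. Without LS174T Dox(-) and without Dox(+), the log2 difference was 3.82 and 3.53 for TFF2 and 3.61 and 4.42 for REG4. It was 2.14 and 2.26 for AGR2 and -1.44 and -0.71 for SPDEF. B3GNT6 lost the call when the LS174T Dox(-) library was left out (adjusted p 0.07). REG4 missed the threshold with a block for GNAS state (adjusted p 0.16) and with no filter on low counts (adjusted p 0.25). SPDEF missed the threshold with a filter at 5 CPM (adjusted p 0.057), with a block for GNAS state (adjusted p 0.056), with all 8 libraries in 1 fit (adjusted p 0.25) and by limma-voom (adjusted p 0.067).

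Most absorptive cell genes were not called between the lines, and several differed widely between the KM12 tumors. Of 21 brush border genes, 1 (6 without KM12 parental, 4 without KM12 knockout) were higher in KM12 and 4 (9 without KM12 parental, 14 without KM12 knockout) lower. The actin bundler ESPN was at 0.495 and 0.371 CPM in KM12 and 61.7 and 33.3 CPM in LS174T (log2 difference -6.77 ± 0.47, adjusted p 2.4e-04), the brush border myosin MYO1A at 0.495 and 0.582 CPM in KM12 and 75.7 and 39.1 CPM in LS174T (log2 difference -6.71 ± 0.47, adjusted p 2.6e-04) and the protocadherin CDHR5, which links microvillus tips, at 1.30 and 1.69 CPM in KM12 and 95.4 and 47.8 CPM in LS174T (log2 difference -5.57 ± 0.44, adjusted p 4.6e-04). The peptidase DPP4 was higher in KM12, at 157 and 90.3 CPM in KM12 and 15.5 and 9.31 CPM in LS174T (log2 difference 3.32 ± 0.39, adjusted p 0.0022). Both LS174T tumors stood apart from both KM12 tumors at these 4 genes. By contrast, MYO7B, another brush border myosin, was at 3.09 and 118 CPM in KM12 and 242 and 138 CPM in LS174T (log2 difference -1.65 ± 1.85, adjusted p 0.61). FABP2, an intestinal fatty acid binding protein, was at 1.61 and 49.7 CPM in KM12 and 4.81 and 7.65 CPM in LS174T (log2 difference 2.05 ± 1.71, adjusted p 0.49), and the lectin LGALS4 at 84.5 and 845 CPM in KM12 and 2169 and 1365 CPM in LS174T (log2 difference -1.93 ± 1.31, adjusted p 0.41). At each of these 3 genes the knockout KM12 tumor was well above the parental one.

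Transcription factors of gut identity differed in both directions, with 5 (3 without LS174T Dox(-)) of 25 higher and 7 (3 without LS174T Dox(-), 4 without LS174T Dox(+)) lower in KM12. CDX2, the homeobox factor that sets intestinal fate, was lower, at 37.1 and 55.9 CPM in KM12 and 276 and 248 CPM in LS174T (log2 difference -2.50 ± 0.26, adjusted p 9.8e-04). Higher were SOX2, a foregut and stem cell factor, at 43.6 and 35.5 CPM in KM12 and 0.585 and 0.107 CPM in LS174T (log2 difference 6.76 ± 0.60, adjusted p 7.5e-04), and FOXD1, a forkhead factor, at 26.7 and 19.3 CPM in KM12 and 0.180 and 0.321 CPM in LS174T (log2 difference 6.51 ± 0.49, adjusted p 2.8e-04). PDX1, which marks pancreas and the gastric antrum to duodenum, was at 13.4 and 14.8 CPM in KM12 and 1.48 and 5.03 CPM in LS174T (log2 difference 2.12 ± 0.59, adjusted p 0.044). The lines did not overlap at these 4 genes. HNF4A, the master factor of absorptive cells, GATA6 and CDX1 did not pass. Leaving out the LS174T Dox(-) library ended the call for PDX1 (adjusted p 0.14). PDX1 missed the threshold with a filter at 5 CPM (adjusted p 0.052).

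Targets of Wnt signalling and crypt progenitor genes, read as 1 list, differed in both directions. Of 21 tested genes, 9 were lower and 2 (5 without KM12 knockout, 1 without LS174T Dox(-) or LS174T Dox(+)) higher, beside 13.1% lower and 9.55% higher over all genes, and 10 were not called. The median log2 difference was -2.60. The negative-feedback genes were among them. AXIN2, a scaffold of the beta-catenin destruction complex, was at 12.2 and 10.2 CPM in KM12 and 319 and 319.6 CPM in LS174T (log2 difference -4.83 ± 0.24, adjusted p 6.9e-05), and RNF43, a ligase that removes Wnt receptors, at 53.9 and 45.7 CPM in KM12 and 352 and 259 CPM in LS174T (log2 difference -2.62 ± 0.25, adjusted p 6.1e-04). NKD1, which binds Dishevelled, had 1 against 2519 counts, a ratio of 2158 toward LS174T (95% counting interval 387 to 85260.0), adjusted p 8.5e-05. EPHB2 and EPHB3, receptors that hold progenitors at the crypt base, were at 6.37 and 5.19 CPM in KM12 and 346 and 523 CPM in LS174T (log2 difference -6.23 ± 0.33, adjusted p 8.8e-05) and at 31.1 and 46.3 CPM in KM12 and 1218 and 1286 CPM in LS174T (log2 difference -5.01 ± 0.28, adjusted p 1.0e-04). OLFM4, a secreted crypt-base marker, was at 0.124 and 0.265 CPM in KM12 and 1253 and 3888 CPM in LS174T (log2 difference -13.61 ± 1.02, adjusted p 0.0021), and MYC at 134 and 74.7 CPM in KM12 and 272 and 371 CPM in LS174T (log2 difference -1.62 ± 0.33, adjusted p 0.015). All KM12 values of these genes were below all LS174T values. LEF1, a nuclear partner of beta-catenin, was higher in KM12, at 17.4 and 17.9 CPM in KM12 and 0 and 0.268 CPM in LS174T (log2 difference 7.07 ± 0.88, adjusted p 0.0028), as was SP5 at 7.73 and 11.6 CPM in KM12 and 1.80 and 1.28 CPM in LS174T (log2 difference 2.64 ± 0.46, adjusted p 0.0073). The stem cell markers LGR5 (77.9 and 19.4 CPM in KM12 and 160.4 and 170.3 CPM in LS174T, log2 difference -1.77 ± 0.71, adjusted p 0.17) and ASCL2 (21.7 and 2.28 CPM in KM12 and 250.4 and 352 CPM in LS174T, log2 difference -4.66 ± 1.31, adjusted p 0.11) did not pass, and both were lower in the knockout than in the parental KM12 tumor. MYC and SP5 did not pass the test without either LS174T library (adjusted p 0.08 to 0.13).

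In the TGF-beta and BMP list, 12 (4 without LS174T Dox(-), 6 without LS174T Dox(+)) of 27 genes were lower in KM12 and 2 (4 without KM12 knockout, 1 without LS174T Dox(-)) higher. The ligand BMP2 was at 14.4 and 11.8 CPM in KM12 and 173 and 65.3 CPM in LS174T (log2 difference -3.19 ± 0.51, adjusted p 0.011). Its immediate targets ID1 (49.1 and 47.8 CPM in KM12 and 216 and 244 CPM in LS174T, log2 difference -2.25 ± 0.20, adjusted p 5.4e-04) and ID3 (57.9 and 29.6 CPM in KM12 and 325 and 378 CPM in LS174T, log2 difference -3.01 ± 0.35, adjusted p 0.0019), inhibitors of differentiation factors, were lower with it, and so was the inhibitory SMAD7, at 5.88 and 2.59 CPM in KM12 and 60.6 and 75.2 CPM in LS174T (log2 difference -4.01 ± 0.42, adjusted p 0.0014). The signal carrier SMAD4 was at 35.9 and 39.1 CPM in KM12 and 90.1 and 86.6 CPM in LS174T (log2 difference -1.23 ± 0.20, adjusted p 0.005). TGFB1, a ligand, was higher at 37.3 and 32.8 CPM in KM12 and 4.99 and 2.46 CPM in LS174T (log2 difference 3.22 ± 0.40, adjusted p 0.0018). In culture TGFB1 stood farther apart, at 115 and 112 CPM in KM12 and 0.367 and 0.518 CPM in LS174T, and the interaction was -4.75 ± 0.45 (adjusted p 0.0016). SMOC1, a secreted BMP antagonist, was at 300.1 and 91.4 CPM in KM12 and 0.810 and 0.535 CPM in LS174T (log2 difference 8.16 ± 0.85, adjusted p 0.0047). The type I and II TGF-beta receptor genes TGFBR1 and TGFBR2 did not pass. The call for SMAD4 did not hold without either LS174T library (adjusted p 0.057 to 0.068). Without the LS174T Dox(-) library, SMOC1 did not pass (adjusted p 0.055).

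Receptor tyrosine kinases and their ligands were split, with 6 (3 without LS174T Dox(-) or LS174T Dox(+)) of 36 higher and 7 (3 without LS174T Dox(-), 4 without LS174T Dox(+)) lower. KM12 was higher at the growth factor FGF2, at 15.3 and 19.3 CPM in KM12 and 0.0900 and 0.321 CPM in LS174T (log2 difference 6.4 ± 0.61, adjusted p 6.6e-04), and at the Wnt5a receptor ROR1, at 7.49 and 16.2 CPM and without a count in LS174T (at least 166-fold). LS174T was higher at KIT, the stem cell factor receptor, at 0.309 and 0 CPM in KM12 and 305 and 188 CPM in LS174T (log2 difference -10.68 ± 0.79, adjusted p 9.9e-04), and at FGFR3, at 2.41 and 4.02 CPM in KM12 and 104 and 81.3 CPM in LS174T (log2 difference -4.84 ± 0.33, adjusted p 2.1e-04). EGFR, ERBB2, ERBB3 and MET did not pass. NTRK2, the receptor of the neurotrophin BDNF, was at 152 and 7.52 CPM in the parental and the knockout KM12 tumor and did not pass. Downstream of these receptors, 7 (3 without LS174T Dox(-), 1 without LS174T Dox(+)) of 19 ERK output genes were higher in KM12 and 4 lower. DUSP6, a phosphatase that ERK induces against itself, was at 150.4 and 99.7 CPM in KM12 and 37.5 and 25.1 CPM in LS174T (log2 difference 2.00 ± 0.30, adjusted p 0.0047) and its relative DUSP4 at 209 and 207 CPM in KM12 and 75.7 and 45.5 CPM in LS174T (log2 difference 1.78 ± 0.28, adjusted p 0.0048). DUSP5, a nuclear member of the same family, had 3 against 1315 counts, a ratio of 376 toward LS174T (95% counting interval 128 to 1823), adjusted p 7.0e-04. The ETS factors ETV1 and ETV4 went in opposite directions, at 26.3 and 31.3 CPM in KM12 and 1.80 and 2.57 CPM in LS174T (log2 difference 3.72 ± 0.35, adjusted p 6.6e-04) and at 49.9 and 31.2 CPM in KM12 and 296 and 195 CPM in LS174T (log2 difference -2.60 ± 0.33, adjusted p 0.0025). DUSP6 and DUSP4 lost the calls when the LS174T Dox(+) library was left out (adjusted p 0.052 to 0.072).

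GNAS feeds adenylyl cyclase and protein kinase A (PKA), and 6 (2 without LS174T Dox(-)) of 37 genes of that route were higher and 6 (3 without LS174T Dox(-)) lower in KM12. PKIA and PKIG, which encode inhibitors of PKA, had no count in either KM12 tumor. They were at 11.6 and 21.4 CPM and 23.1 and 23.3 CPM in LS174T, at least 188-fold and at least 271-fold lower in KM12. Both passed the filter through LS174T alone, which fixed their direction. The remaining inhibitor gene, PKIB, was at 4.64 and 14.0 CPM in KM12 and 6.88 and 2.94 CPM in LS174T (log2 difference 0.92 ± 0.65, adjusted p 0.37). Phosphodiesterases, which break down cyclic AMP, were higher in KM12 at PDE4B (43.6 and 7.84 CPM in KM12 and 0.135 and 0.107 CPM in LS174T, log2 difference 7.64 ± 1.18, adjusted p 0.011), PDE3A (14.0 and 16.9 CPM in KM12 and 1.53 and 2.14 CPM in LS174T, log2 difference 3.08 ± 0.40, adjusted p 0.0024) and PDE4D (39.7 and 32.4 CPM in KM12 and 17.7 and 11.2 CPM in LS174T, log2 difference 1.31 ± 0.30, adjusted p 0.02). PDE4A was lower, at 0.433 and 0.159 CPM in KM12 and 10.0 and 6.10 CPM in LS174T (log2 difference -4.77 ± 0.66, adjusted p 0.0029). The scaffold AKAP12, which tethers PKA, was at 31.9 and 20.5 CPM in KM12 and 0.315 and 0.0535 CPM in LS174T (log2 difference 7.04 ± 0.66, adjusted p 7.6e-04), and the cyclase ADCY4 at 0.124 and 0.159 CPM in KM12 and 20.7 and 8.45 CPM in LS174T (log2 difference -6.62 ± 0.71, adjusted p 0.001). The catalytic and regulatory PKA genes PRKACA, PRKACB, PRKAR1A and PRKAR2A did not pass. Leaving out either LS174T library ended the calls for PDE4B and PDE4D (adjusted p 0.066 to 0.14). PDE3A and PDE4A did not pass the test without the LS174T Dox(-) library (adjusted p 0.052 to 0.055). PDE4B missed the threshold by limma-voom (adjusted p 0.056).

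Genes for handling foreign compounds were called in both directions. Of 36 tested, 21 (10 without LS174T Dox(-), 13 without LS174T Dox(+)) were lower and 5 (1 without LS174T Dox(-) or LS174T Dox(+)) higher, with a median log2 difference of -2.11. NR1I2, the xenobiotic-sensing pregnane X receptor, had 2 against 3175 counts, a ratio of 1360.0 toward LS174T (95% counting interval 376 to 11230.0), adjusted p 2.4e-04. ABCB1, the P-glycoprotein efflux pump, was at 0.0619 and 0.212 CPM in KM12 and 38.0 and 19.6 CPM in LS174T (log2 difference -7.60 ± 0.64, adjusted p 5.0e-04), and CYP3A5, a cytochrome P450, at 4.21 and 7.78 CPM in KM12 and 62.6 and 23.0 CPM in LS174T (log2 difference -2.83 ± 0.59, adjusted p 0.024). Both are targets of that receptor in gut. UGT2B17, which conjugates steroids to glucuronic acid, had 1 against 1724 counts, a ratio of 1477 toward LS174T (95% counting interval 265 to 58360.0), adjusted p 9.7e-05. The carboxylesterase CES3 was at 2.35 and 2.01 CPM in KM12 and 92.2 and 71.0 CPM in LS174T (log2 difference -5.22 ± 0.28, adjusted p 9.5e-05) and the glutathione transferase GSTM3 at 0 and 0.212 CPM in KM12 and 26.3 and 24.9 CPM in LS174T (log2 difference -7.74 ± 0.73, adjusted p 8.4e-04). The efflux pump ABCG2 was the other way, with 173 against 2 counts, a ratio of 101 toward KM12 (95% counting interval 27.5 to 840.5), adjusted p 0.0011. GSTP1 was at 128 and 0.106 CPM in the parental and the knockout KM12 tumor and did not pass. The CYP4F and UGT1A genes are near-copies or share exons, so their single values are uncertain. The call for CYP3A5 did not hold without the LS174T Dox(-) library (adjusted p 0.12).

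Targets of the oxidant-responsive transcription factor NRF2 and AKR1 enzymes were read as 1 list. Among its 24 tested genes, 7 (2 without LS174T Dox(-) or LS174T Dox(+)) were lower in KM12 and 3 (6 without KM12 parental, 1 without LS174T Dox(-), 0 without LS174T Dox(+)) higher. The aldose reductase AKR1B1 had 3 against 2644 counts, a ratio of 755 toward LS174T (95% counting interval 258 to 3663), adjusted p 7.5e-04. The iron store FTL was at 423 and 474 CPM in KM12 and 1375 and 1629 CPM in LS174T (log2 difference -1.74 ± 0.20, adjusted p 0.0014), and the quinone reductase NQO1 at 59.4 and 88.5 CPM in KM12 and 139 and 140.2 CPM in LS174T (log2 difference -0.91 ± 0.24, adjusted p 0.034). The cystine importer SLC7A11 was higher in KM12, at 179 and 151 CPM in KM12 and 58.3 and 41.7 CPM in LS174T (log2 difference 1.72 ± 0.24, adjusted p 0.0031), as was the thioredoxin reductase TXNRD1, at 296 and 318 CPM in KM12 and 165 and 168 CPM in LS174T (log2 difference 0.88 ± 0.19, adjusted p 0.017). In culture 18 of the 24 were lower in KM12, and the interaction called 10 greater in xenografts (2 to 5 without any 1 culture library) and 0 (1 without the KM12 parental xenograft) smaller. AKR1C2, a steroid reductase, was at 1.05 and 1.54 CPM in KM12 and 7.47 and 8.35 CPM in LS174T in the tumors (log2 difference -2.60 ± 0.46, adjusted p 0.0077) and at 1.19 and 1.52 CPM in KM12 and 330.1 and 313 CPM in LS174T in culture (interaction 5.32 ± 0.30, adjusted p 5.2e-04). AKR1C genes are close paralogs, and reads may be split between them. When either LS174T library was left out, TXNRD1 and AKR1C2 did not pass (adjusted p 0.077 to 0.13). NQO1 lost the call when either LS174T library or the KM12 parental library was left out (adjusted p 0.091 to 0.19). Leaving out the LS174T Dox(+) library ended the call for SLC7A11 (adjusted p 0.055).

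Liver-type metabolism genes were lower in KM12 at 7 (2 without LS174T Dox(-) or LS174T Dox(+)) of 14 and higher at 1 (0 without LS174T Dox(-) or LS174T Dox(+)). PCK1, the rate-limiting enzyme of glucose synthesis, was at 22.9 and 10.5 CPM in KM12 and 1134 and 717 CPM in LS174T (log2 difference -5.79 ± 0.51, adjusted p 0.0013). CPS1, the first enzyme of the urea cycle, was at 0.371 and 0.159 CPM in KM12 and 34.3 and 54.3 CPM in LS174T (log2 difference -7.38 ± 0.49, adjusted p 1.9e-04), and SERPINA1, alpha-1 antitrypsin, at 0.247 and 1.75 CPM in KM12 and 35.3 and 30.2 CPM in LS174T (log2 difference -5.00 ± 0.78, adjusted p 0.0091). Of 30 genes of cholesterol and fatty acid synthesis, 4 (14 without KM12 knockout, 0 without LS174T Dox(-) or LS174T Dox(+)) were lower and 0 (2 without KM12 parental) higher, a share near the 13.1% called lower over all genes. FDFT1, which forms squalene, was lower, at 177 and 323 CPM in KM12 and 737 and 536 CPM in LS174T (log2 difference -1.35 ± 0.33, adjusted p 0.03). The creatine kinase CKB, which buffers ATP, was at 30.6 and 18.1 CPM in KM12 and 4534 and 2316 CPM in LS174T (log2 difference -7.14 ± 0.52, adjusted p 8.1e-04). All of these separated the lines without overlap. SERPINA1 and FDFT1 did not pass the test without either LS174T library (adjusted p 0.071 to 0.21).

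Interferon-stimulated genes, the antiviral programme that type I interferon switches on, were mostly not called in the tumors. Of 41 tested, 4 (11 without KM12 parental, 0 without LS174T Dox(-) or LS174T Dox(+)) were higher in KM12 and 8 (3 without LS174T Dox(-), 4 without LS174T Dox(+)) lower, with a median log2 difference of 0.11. Over all genes 9.55% were higher and 13.1% lower, so the higher share is near that of all genes. IFI6 was at 34.6 and 49.9 CPM in KM12 and 9.90 and 10.5 CPM in LS174T (log2 difference 2.05 ± 0.28, adjusted p 0.0027), while IFI27, a mitochondrial interferon protein, was at 1.79 and 3.76 CPM in KM12 and 113 and 82.3 CPM in LS174T (log2 difference -5.12 ± 0.41, adjusted p 4.6e-04). IFITM1, which blocks viral entry, was at 1.48 and 0.741 CPM in KM12 and 61.2 and 77.6 CPM in LS174T (log2 difference -5.97 ± 0.38, adjusted p 1.8e-04), and IRF7, an interferon amplifier, at 11.8 and 10.2 CPM in KM12 and 56.9 and 37.2 CPM in LS174T (log2 difference -2.10 ± 0.29, adjusted p 0.0028). STAT2 and IRF9 did not pass. The cultures differed from this. There 34 of the 41 were lower in KM12 and 0 higher, with a median of -3.08. Of all 15533 genes, 4989 were lower and 4926 higher in culture. The interaction called 23 greater in xenografts (15 without either LS174T xenograft library and 12 to 14 without any 1 culture library) and 1 (0 without either LS174T xenograft library or any 1 culture but KM12 parental) smaller. IFI6 was at 16.9 and 16 CPM in KM12 and 198 and 165 CPM in LS174T in culture (interaction 5.54 ± 0.28, adjusted p 3.1e-04). OAS2, which makes an activator of RNA decay, was at 1.73 and 5.45 CPM in KM12 and 1.12 and 0.963 CPM in LS174T in the tumors and 0.157 and 0.40 CPM in KM12 and 36.1 and 28.5 CPM in LS174T in culture (interaction 8.62 ± 0.83, adjusted p 0.0016). The call for IFI6 did not hold without either LS174T library (adjusted p 0.058 to 0.066). Without the LS174T Dox(-) library, IRF7 did not pass (adjusted p 0.055).

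Both lines moved. For IFIT1, which binds viral RNA, the tumors held 2.78 and 2.28 CPM in KM12 and 0.315 and 1.5 CPM in LS174T and the cultures 0.376 and 1.17 CPM in KM12 and 20.8 and 19.5 CPM in LS174T (interaction 6.21 ± 0.95, adjusted p 0.0072). KM12 values were above those of its cultures and LS174T values below those of its own. IFI44 had the same shape, at 4.83 and 7.25 CPM in KM12 and 8.41 and 7.17 CPM in LS174T in the tumors and 0.408 and 0.906 CPM in KM12 and 45.5 and 44.5 CPM in LS174T in culture (interaction 5.73 ± 0.48, adjusted p 0.0012). PIGR, the receptor that carries IgA across the epithelium and which interferon and other cytokines induce, was lower in KM12 in both settings. It was at 258 and 272 CPM in KM12 and 5127 and 2981 CPM in LS174T in tumors (log2 difference -3.94 ± 0.30, adjusted p 3.9e-04) and at 1.19 and 2.45 CPM in KM12 and 1905 and 1841 CPM in LS174T in culture (interaction 6.08 ± 0.49, adjusted p 0.0012).

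Antigen presentation genes were called higher at 4 (2 without LS174T Dox(-) or LS174T Dox(+)) of 23 and lower at 4 (2 without LS174T Dox(-)), beside 9.55% and 13.1% over all genes, so the lower share is near that of all genes. The class I heavy chains HLA-B and HLA-C went in opposite directions. HLA-B was at 267 and 441 CPM in KM12 and 9.31 and 11.5 CPM in LS174T (log2 difference 5.09 ± 0.34, adjusted p 2.1e-04) and HLA-C at 40.9 and 61.9 CPM in KM12 and 248 and 232 CPM in LS174T (log2 difference -2.22 ± 0.26, adjusted p 0.0014). Reads of HLA genes depend on how near a line's alleles are to the reference, so a line difference at one of them is uncertain. The shared light chain B2M was at 645 and 1018 CPM in KM12 and 277 and 358 CPM in LS174T (log2 difference 1.39 ± 0.28, adjusted p 0.013). NLRC5, the class I activator, was lower in KM12, at 18.2 and 28.6 CPM in KM12 and 108 and 55.7 CPM in LS174T (log2 difference -1.81 ± 0.39, adjusted p 0.022), and the peptide trimmer ERAP2 higher, at 35.5 and 45.7 CPM in KM12 and 8.28 and 6.79 CPM in LS174T (log2 difference 2.43 ± 0.28, adjusted p 0.0013). The peptide transporters TAP1 and TAP2 and the immunoproteasome genes PSMB8 to PSMB10 did not pass. B2M lost the call when either LS174T library was left out (adjusted p 0.092 to 0.15). Leaving out the LS174T Dox(-) library ended the call for NLRC5 (adjusted p 0.14).

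Of 20 NF-kB targets and chemokines, 7 (4 without LS174T Dox(-)) were lower in KM12 and 1 (0 without KM12 parental or LS174T Dox(-) or LS174T Dox(+), 4 without KM12 knockout) higher. IL32, a cytokine, was at 1.98 and 1.43 CPM in KM12 and 119.7 and 124 CPM in LS174T (log2 difference -6.16 ± 0.28, adjusted p 5.3e-05), TNFAIP2 at 0.309 and 0.106 CPM in KM12 and 82.6 and 28.4 CPM in LS174T (log2 difference -8.06 ± 0.84, adjusted p 0.003) and the mucosal chemokine CCL28 at 0.433 and 0.106 CPM in KM12 and 15.1 and 10.2 CPM in LS174T (log2 difference -5.56 ± 0.67, adjusted p 0.0016). BIRC3, an inhibitor of cell death, was at 9.22 and 7.36 CPM in KM12 and 40.5 and 24.4 CPM in LS174T (log2 difference -1.97 ± 0.34, adjusted p 0.0067). NFKBIA, TNFAIP3, CXCL1 and CXCL8 did not pass. LYZ, a product of Paneth cells as well as leukocytes, was at 263 and 835 CPM in KM12 and 0.495 and 2.84 CPM in LS174T (log2 difference 8.39 ± 1.31, adjusted p 0.026). In culture it was at 244 and 284 CPM against 43.0 and 33.4 CPM in LS174T. BIRC3 did not pass the test without the LS174T Dox(-) library (adjusted p 0.093). The call for LYZ did not hold without KM12 knockout or LS174T Dox(-) (adjusted p 0.056 to 0.081). LYZ missed the threshold with a block for GNAS state (adjusted p 0.21) and with no filter on low counts (adjusted p 0.18).

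ATF4 is the transcription factor of the amino acid and integrated stress response, and its targets import and make amino acids. In the tumors 6 of 23 were lower in KM12 and 1 (2 without KM12 knockout, 0 without LS174T Dox(+)) higher, with a median log2 difference of -0.19. In culture 17 were higher in KM12 and 3 lower, with a median of 1.10, beside 4926 higher and 4989 lower of all 15533 genes. The interaction called 15 smaller in xenografts and 1 greater. ASNS, asparagine synthetase, was at 74.7 and 103 CPM in KM12 and 95.9 and 107 CPM in LS174T in the tumors (log2 difference -0.20 ± 0.23, adjusted p 0.59) and at 298 and 289 CPM in KM12 and 59.0 and 59.4 CPM in LS174T in culture (interaction -2.48 ± 0.23, adjusted p 0.0014). The serine synthesis enzyme PHGDH was at 313 and 252 CPM in KM12 and 223 and 290.4 CPM in LS174T in the tumors (log2 difference 0.14 ± 0.23, adjusted p 0.72) and 688 and 716 CPM in KM12 and 123 and 135 CPM in LS174T in culture (interaction -2.28 ± 0.24, adjusted p 0.002). Both were higher in the KM12 than in the LS174T cultures by a margin that the tumors lacked. ATF4 itself had an interaction of -1.44 ± 0.17 (adjusted p 0.0027).

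DDIT4, a brake on mTORC1 that ATF4 and HIF both induce, turned in direction. It was at 414 and 384 CPM in KM12 and 2049 and 943 CPM in LS174T in the tumors (log2 difference -1.91 ± 0.38, adjusted p 0.017) and at 312 and 263 CPM in KM12 and 51 and 48.3 CPM in LS174T in culture (log2 difference 2.53 ± 0.10, adjusted p 5.1e-08), with an interaction of -4.41 ± 0.46 (adjusted p 0.0024). TRIB3, a pseudokinase that ATF4 induces and that inhibits it in turn, was at 73.9 and 129.9 CPM in KM12 and 242 and 214 CPM in LS174T (log2 difference -1.16 ± 0.30, adjusted p 0.032), with an interaction of -2.94 ± 0.34 (adjusted p 0.0027). NUPR1, a stress-induced chromatin protein, was at 16.9 and 8.79 CPM in KM12 and 455 and 375 CPM in LS174T (log2 difference -5.01 ± 0.38, adjusted p 3.9e-04), and VLDLR, a lipoprotein receptor, had 3 against 1104 counts, a ratio of 315 toward LS174T (95% counting interval 108 to 1531), adjusted p 3.2e-04. Of 19 chaperones of the endoplasmic reticulum, 4 (2 without KM12 parental, 1 without LS174T Dox(-) or LS174T Dox(+)) were higher in KM12 and 2 (4 without KM12 knockout, 0 without LS174T Dox(-) or LS174T Dox(+)) lower. The lower share with all libraries was not above the 13.1% called lower over all genes. HYOU1, a folding chaperone, was at 406 and 412 CPM in KM12 and 120.3 and 115 CPM in LS174T (log2 difference 1.80 ± 0.20, adjusted p 0.0011), and HSPA5, the master chaperone BiP, did not pass (1056 and 773 CPM in KM12 and 1054 and 833 CPM in LS174T, log2 difference -0.05 ± 0.23, adjusted p 0.91). Of 12 cytosolic heat shock chaperones tested, 0 were called by edgeR and 2 by DESeq2, both higher in KM12, and without the knockout KM12 library edgeR called 8 higher. Without the parental KM12 library edgeR called 2 lower and 0 higher. When either LS174T library was left out, TRIB3 did not pass (adjusted p 0.15 to 0.21).

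**Figure D5:**
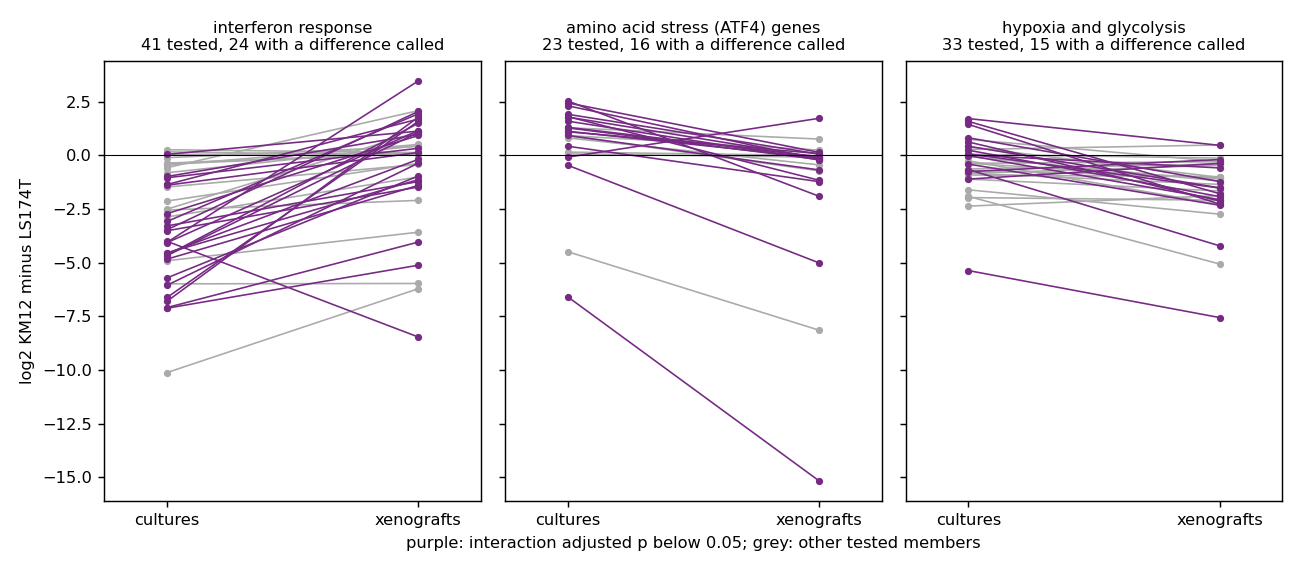
Line difference (log2 KM12 minus LS174T) of each gene in cultures (left) joined to that in xenografts (right) for interferon, ATF4 and hypoxia genes, with genes called in the interaction in purple. The lines of 23 of 41 interferon genes called in the interaction rise from left to right, and those of 15 of 23 ATF4 genes and 13 of 33 hypoxia genes fall (genes with 0 counts sit at fitted values that depend on the prior count).

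Beyond the lists, the interaction picked out single genes. NDUFA4L2, a mitochondrial protein that lowers complex I activity and a HIF target, was at 1.36 and 1.48 CPM in KM12 and 269 and 274 CPM in LS174T in the tumors (log2 difference -7.57 ± 0.26, adjusted p 5.3e-05) and at 7.21 and 6.42 CPM in KM12 and 0.395 and 0.274 CPM in LS174T in culture (interaction -11.86 ± 0.27, adjusted p 1.0e-06). It had the smallest interaction p of the genes called smaller in xenografts. RGMB, a BMP co-receptor, was at 24.4 and 28.8 CPM in KM12 and 467 and 551 CPM in LS174T (log2 difference -4.26 ± 0.24, adjusted p 1.0e-04) against 27.6 and 24.2 CPM in KM12 and 36.7 and 45.3 CPM in LS174T in culture (interaction -3.57 ± 0.24), and MLXIPL, the glucose-sensing factor ChREBP, at 11.3 and 6.25 CPM in KM12 and 135 and 117 CPM in LS174T (log2 difference -3.85 ± 0.33, adjusted p 5.6e-04) against 131 and 110.0 CPM in KM12 and 48.2 and 42.9 CPM in LS174T (interaction -5.22 ± 0.37). In RGMB the LS174T tumors exceeded their cultures, and in MLXIPL the KM12 tumors fell short of theirs while LS174T tumors exceeded theirs. FBP1, a glucose synthesis enzyme, was at 7.42 and 7.20 CPM in KM12 and 17.7 and 17.3 CPM in LS174T (log2 difference -1.26 ± 0.31, adjusted p 0.026) against 8.72 and 9.67 CPM in KM12 and 0.565 and 0.487 CPM in LS174T in culture (interaction -5.34 ± 0.33). WDR72 was at 53.7 and 71.6 CPM in KM12 and 8.91 and 8.67 CPM in LS174T (log2 difference 2.83 ± 0.25, adjusted p 5.0e-04) against 64.9 and 60.0 CPM in KM12 and 0.282 and 0.426 CPM in LS174T (interaction -4.59 ± 0.32), and ITPKA, an inositol phosphate kinase, was not called in the tumors (7.05 and 3.44 CPM in KM12 and 8.23 and 10.3 CPM in LS174T, log2 difference -0.82 ± 0.46, adjusted p 0.25) against 45.1 and 44.1 CPM in KM12 and 0.537 and 0.457 CPM in LS174T in culture (interaction -7.27 ± 0.50). Among genes greater in xenografts, TSPAN8, a tetraspanin, was at 239 and 276 CPM in KM12 and 177 and 167 CPM in LS174T against 97.3 and 99.4 CPM in KM12 and 364 and 305 CPM in LS174T in culture (interaction 2.38 ± 0.19), and GALNT6, which starts O-linked glycans, at 44.9 and 47.4 CPM in KM12 and 34.4 and 32.4 CPM in LS174T against 23.1 and 21.4 CPM in KM12 and 150.5 and 103 CPM in LS174T (interaction 3.00 ± 0.26). FBP1 lost the call when either LS174T library was left out (adjusted p 0.13 to 0.15).

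Epithelial junction genes and keratins were higher in KM12 at 10 (16 without KM12 parental, 3 without LS174T Dox(-), 4 without LS174T Dox(+)) of 42 and lower at 6 (1 without LS174T Dox(-), 3 without LS174T Dox(+)). The lower share is near the 13.1% called lower over all genes. KRT7, a keratin of simple ducts that most colorectal cancers lack, was at 83.6 and 382 CPM in KM12 and 13.0 and 10.7 CPM in LS174T (log2 difference 4.30 ± 0.89, adjusted p 0.043), and KRT17, a stress keratin, at 7.49 and 9.90 CPM in KM12 and 3.01 and 2.62 CPM in LS174T (log2 difference 1.62 ± 0.41, adjusted p 0.029). CLDN10, a tight junction pore, was at 29.6 and 13.1 CPM in KM12 with no LS174T count (at least 283-fold), and CDH3, P-cadherin, at 98.0 and 83 CPM in KM12 and 7.24 and 18.8 CPM in LS174T (log2 difference 2.80 ± 0.47, adjusted p 0.011). CLDN4, a sealing claudin, was lower at 204 and 204 CPM in KM12 and 434 and 454 CPM in LS174T (log2 difference -1.12 ± 0.19, adjusted p 0.0065), with the junction scaffold TJP3 at 34.3 and 49.9 CPM in KM12 and 241 and 158 CPM in LS174T (log2 difference -2.24 ± 0.30, adjusted p 0.003). EPCAM and CDH1, which define epithelium, did not pass. KM12 was also higher at 7 (2 without LS174T Dox(-) or LS174T Dox(+)) of 20 mesenchymal genes and lower at 3 (5 without KM12 parental, 1 without LS174T Dox(+)). The summed fibroblast markers were at 285.1 and 14.1 CPM in KM12 and 4.14 and 4.28 CPM in LS174T, and their part in these calls was not tested. Vimentin (VIM) was at 133 and 36.4 CPM in KM12 and 0.810 and 0.214 CPM in LS174T (log2 difference 7.30 ± 1.06, adjusted p 0.015), and the caveola proteins CAV1 and CAV2 were higher, CAV1 with 953 against 2 counts, a ratio of 556 toward KM12 (95% counting interval 154 to 4600.0), adjusted p 0.0023 and CAV2 at 54.6 and 36.9 CPM in KM12 and 4.99 and 6.21 CPM in LS174T (log2 difference 3.03 ± 0.31, adjusted p 8.5e-04). PLAU, urokinase, was lower at 0.928 and 1.48 CPM in KM12 and 4.59 and 17.6 CPM in LS174T (log2 difference -3.19 ± 0.74, adjusted p 0.024). Fibronectin (FN1) did not pass. VIM was at 30.0 and 25.8 CPM in KM12 and 0.593 and 0.579 CPM in LS174T in the cultures. Leaving out either LS174T library ended the calls for KRT7, KRT17, CLDN4, VIM and CAV1 (adjusted p 0.056 to 0.18). PLAU did not pass the test without the LS174T Dox(+) library (adjusted p 0.14). KRT7 missed the threshold by limma-voom (adjusted p 0.064) and with no filter on low counts (adjusted p 0.28). VIM missed the threshold with a block for GNAS state (adjusted p 0.077). PLAU missed the threshold by limma-voom (adjusted p 0.074).

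Matrix genes and their receptors were higher at 11 (4 without LS174T Dox(-), 2 without LS174T Dox(+)) of 35 and lower at 8 (2 without LS174T Dox(-) or LS174T Dox(+)). COL27A1, a fibrillar collagen of cartilage, was at 23.4 and 48.2 CPM in KM12 and 0.180 and 0.161 CPM in LS174T (log2 difference 7.66 ± 0.57, adjusted p 2.8e-04) and COL7A1, the anchoring fibril collagen, at 50.05 and 18.2 CPM in KM12 and 3.24 and 3.32 CPM in LS174T (log2 difference 3.38 ± 0.53, adjusted p 0.0063). COL4A5, a basement membrane chain, was at 11.3 and 21.2 CPM in KM12 with no count in LS174T (at least 226-fold). The laminin chain LAMA3 was at 240.3 and 147 CPM in KM12 and 38.4 and 18.9 CPM in LS174T (log2 difference 2.75 ± 0.43, adjusted p 0.0078). COL18A1, the source of endostatin, was lower at 1.55 and 1.64 CPM in KM12 and 53.0 and 319 CPM in LS174T (log2 difference -6.86 ± 1.24, adjusted p 0.037), with a wide gap between the LS174T tumors. COL1A1, the main fibroblast collagen, was at 31.5 and 7.73 CPM in KM12 and 1.17 and 1.82 CPM in LS174T (log2 difference 3.71 ± 0.76, adjusted p 0.02). COL1A1 is itself part of the fibroblast marker sum given above, which was highest in the parental KM12 tumor, so the gene and the sum are not independent. The part of other cells in COL1A1 was not tested. Genes of the Hippo pathway and targets of its effectors YAP and TAZ, read as 1 list, were higher at 7 (3 without LS174T Dox(-), 2 without LS174T Dox(+)) of 21 and lower at 1 (4 without KM12 parental, 3 without KM12 knockout, 2 without LS174T Dox(-) or LS174T Dox(+)). WWTR1, which encodes TAZ, was at 39.7 and 12.8 CPM in KM12 and 1.26 and 1.02 CPM in LS174T (log2 difference 4.52 ± 0.64, adjusted p 0.0045), F3, the clotting initiator tissue factor, at 331 and 382 CPM in KM12 and 18.1 and 12.6 CPM in LS174T (log2 difference 4.54 ± 0.28, adjusted p 1.3e-04), and IGFBP3, an IGF binding protein, at 399.7 and 214 CPM in KM12 and 17.4 and 13.0 CPM in LS174T (log2 difference 4.33 ± 0.38, adjusted p 6.9e-04). CCN2, a classic target, was at 38.4 and 36.9 CPM in KM12 and 20.8 and 12.8 CPM in LS174T (log2 difference 1.16 ± 0.29, adjusted p 0.028), and YAP1, TEAD1, TEAD4 and CCN1 did not pass. The calls for COL7A1, COL1A1, WWTR1 and CCN2 did not hold without either LS174T library (adjusted p 0.062 to 0.18). Without the LS174T Dox(+) library, LAMA3 did not pass (adjusted p 0.057). COL18A1 lost the call when the KM12 knockout library was left out (adjusted p 0.31). LAMA3 missed the threshold with a block for GNAS state (adjusted p 0.0503). COL18A1 missed the threshold with a block for GNAS state (adjusted p 0.064), by limma-voom (adjusted p 0.093) and with no filter on low counts (adjusted p 0.22). COL1A1 missed the threshold by limma-voom (adjusted p 0.066).

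Surface antigens used as tumor markers were divided, with 7 of 25 higher and 7 (11 without KM12 knockout, 2 without LS174T Dox(-) or LS174T Dox(+)) lower. CEACAM5, the carcinoembryonic antigen, was at 68.4 and 119 CPM in KM12 and 349 and 181 CPM in LS174T (log2 difference -1.50 ± 0.41, adjusted p 0.049), GPA33, the A33 colon antigen, at 39.8 and 77.0 CPM in KM12 and 701 and 589 CPM in LS174T (log2 difference -3.46 ± 0.36, adjusted p 0.0012), and DPEP1, a membrane dipeptidase, at 0.742 and 4.13 CPM in KM12 and 1111 and 1481 CPM in LS174T (log2 difference -9.03 ± 0.99, adjusted p 0.0075). Higher in KM12 was CD24, a mucin-type glycoprotein, at 944 and 953 CPM in KM12 and 226 and 204 CPM in LS174T (log2 difference 2.14 ± 0.20, adjusted p 5.8e-04). CEACAM genes are close paralogs, so single values are uncertain. S100A6, a calcium-binding protein, was at 1695 and 3404 CPM in KM12 and 604 and 574 CPM in LS174T (log2 difference 2.11 ± 0.34, adjusted p 0.0077). Among abundant genes lower in KM12 were NSMF, at 90.1 and 47.9 CPM in KM12 and 2127 and 1729 CPM in LS174T (log2 difference -4.81 ± 0.37, adjusted p 4.6e-04), and MKNK2, a kinase that phosphorylates the cap-binding protein eIF4E, at 137 and 108 CPM in KM12 and 1187 and 675 CPM in LS174T (log2 difference -2.93 ± 0.32, adjusted p 0.0015). The lines did not overlap at any of these 7 genes. Leaving out either LS174T library ended the calls for CEACAM5 and S100A6 (adjusted p 0.069 to 0.25). CEACAM5 missed the threshold with a filter at 5 CPM (adjusted p 0.06) and with RLE scaling (adjusted p 0.051). DPEP1 missed the threshold with no filter on low counts (adjusted p 0.083).

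Of 30 proliferation genes, 5 (8 without KM12 knockout, 1 without LS174T Dox(-) or LS174T Dox(+)) were higher in KM12 and 1 (0 without LS174T Dox(-) or LS174T Dox(+)) lower. MKI67, the Ki-67 antigen, was at 388 and 444 CPM in KM12 and 129.9 and 97.9 CPM in LS174T (log2 difference 1.87 ± 0.23, adjusted p 0.0018) and AURKA, a mitotic kinase, at 106 and 93.5 CPM in KM12 and 37.6 and 42.2 CPM in LS174T (log2 difference 1.32 ± 0.20, adjusted p 0.0044). The replication helicase genes MCM2 to MCM7 did not pass. CCNE2, a cyclin of the entry into S phase, was higher in KM12, at 13.9 and 21.8 CPM in KM12 and 4.99 and 6.21 CPM in LS174T (log2 difference 1.67 ± 0.37, adjusted p 0.018). TYMS, which makes thymidylate for DNA synthesis, was lower, at 59.0 and 43.8 CPM in KM12 and 101 and 129 CPM in LS174T (log2 difference -1.16 ± 0.24, adjusted p 0.014). CCNE2 and TYMS did not pass the test without either LS174T library (adjusted p 0.076 to 0.16). CDKN1A, the p53-induced inhibitor p21, was lower at 21.5 and 44.3 CPM in KM12 and 164 and 115 CPM in LS174T (log2 difference -2.08 ± 0.39, adjusted p 0.014), as was the p53 target and stress hormone GDF15, at 81.7 and 188 CPM in KM12 and 606 and 407 CPM in LS174T (log2 difference -1.91 ± 0.45, adjusted p 0.033). Of 12 imprinted genes, 3 were higher and 1 (2 without KM12 parental, 3 without KM12 knockout, 0 without LS174T Dox(-) or LS174T Dox(+)) lower. PEG10, a retrotransposon-derived paternally expressed gene, was at 507 and 178 CPM in KM12 and 0.945 and 1.23 CPM in LS174T (log2 difference 8.30 ± 0.72, adjusted p 0.0018), and its divergent neighbour SGCE had 607 against 3 counts, a ratio of 236 toward KM12 (95% counting interval 80.5 to 1149), adjusted p 3.2e-04. PLAGL1, another paternally expressed gene, was at 50.1 and 41.9 CPM in KM12 and 1.89 and 2.57 CPM in LS174T (log2 difference 4.37 ± 0.31, adjusted p 2.3e-04). Of 13 mitochondrially encoded genes, 6 (1 without LS174T Dox(-) or LS174T Dox(+)) were higher in KM12 and 0 lower, with MT-ND1, a complex I subunit, at 2957 and 5001 CPM in KM12 and 739 and 1030.1 CPM in LS174T (log2 difference 2.17 ± 0.31, adjusted p 0.0044). The share of mitochondrial counts was higher in both KM12 tumors than in both LS174T tumors, and RNA quality was not measured. The calls for AURKA, CDKN1A, GDF15 and MT-ND1 did not hold without either LS174T library (adjusted p 0.054 to 0.19).

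Transport, prostaglandin and endocrine genes were few and split. Of 24 ion and water transport genes, 5 (2 without LS174T Dox(-) or LS174T Dox(+)) were higher and 4 (9 without KM12 parental, 7 without KM12 knockout) lower, beside 9.55% higher and 13.1% lower over all genes, so the lower share is near that of all genes. KCNE3, the beta subunit of the basolateral potassium channel that sustains chloride secretion, was at 71.2 and 147 CPM in KM12 and 6.03 and 6.26 CPM in LS174T (log2 difference 4.15 ± 0.40, adjusted p 0.001), and the bicarbonate importer SLC4A4 at 48.3 and 70.6 CPM in KM12 and 4.36 and 7.65 CPM in LS174T (log2 difference 3.31 ± 0.36, adjusted p 0.0014). SLC9A3, the sodium-proton exchanger of absorptive cells, had no KM12 count and was at 10.8 and 6.10 CPM in LS174T (at least 101-fold lower). CFTR, the chloride channel that cyclic AMP opens, was at 14.6 and 0.0529 CPM in KM12 and 119.8 and 122 CPM in LS174T (log2 difference -4.06 ± 2.00, adjusted p 0.28). Of 15 prostaglandin and arachidonate genes, 4 (1 without LS174T Dox(-) or LS174T Dox(+)) were higher and 2 (0 without LS174T Dox(-) or LS174T Dox(+)) lower, with ALOX5, 5-lipoxygenase, at 18.5 and 22.8 CPM in KM12 and 1.62 and 1.82 CPM in LS174T (log2 difference 3.58 ± 0.37, adjusted p 8.8e-04). PTGER4, the Gs-coupled prostaglandin E2 receptor EP4, was at 10.7 and 10.3 CPM in KM12 and 31.3 and 23.6 CPM in LS174T (log2 difference -1.39 ± 0.28, adjusted p 0.013). Of 11 enteroendocrine and neuronal genes, 2 (5 without KM12 parental, 0 without LS174T Dox(-), 1 without LS174T Dox(+)) were higher and 2 (1 without LS174T Dox(-) or LS174T Dox(+)) lower. INSM1, an endocrine differentiation factor, was at 28.6 and 32.7 CPM in KM12 and 10.8 and 13.6 CPM in LS174T (log2 difference 1.33 ± 0.27, adjusted p 0.012), and the neuronal enolase ENO2, which hypoxia also raises, at 170.5 and 80.9 CPM in KM12 and 479.9 and 344 CPM in LS174T (log2 difference -1.71 ± 0.39, adjusted p 0.027). None of the called genes named here overlapped between the lines. Without either LS174T library the calls of PTGER4, INSM1 and ENO2 were lost, in fits whose spread came from the KM12 pair alone. Without LS174T Dox(-) and without Dox(+), the log2 difference was -1.18 and -1.59 for PTGER4. It was 1.17 and 1.49 for INSM1 and -1.46 and -1.95 for ENO2. INSM1 missed the threshold with all 8 libraries in 1 fit (adjusted p 0.076). ENO2 missed the threshold with a block for GNAS state (adjusted p 0.054).

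Some genes that were not called between the lines differed widely within one. In KM12 the parental and knockout tumors were at 1.48 and 43.7 CPM for CDHR2, a brush border protocadherin, and at 0.186 and 11.5 CPM for FABP1, a fatty acid binding protein. They were at 50.7 and 0.688 CPM for PROM1, the stem cell antigen CD133, and at 88.7 and 6.72 CPM for SMOC2, a matrix protein of crypt-base cells. The tight junction gene CLDN18 was at 1.55 and 50.5 CPM. None of these 5 was called between lines. In LS174T the Dox (-) and Dox (+) tumors were at 13.0 and 77.4 CPM for the Wnt inhibitor APCDD1, at 301 and 45.5 CPM for the membrane mucin MUC17 and at 1.44 and 51.3 CPM for the GTPase-activating protein DLC1, which were not called either. With 1 library a state, these gaps have no replicate, and GNAS state, clone and animal cannot be told apart.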

How the data were processed

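RNA of 8 libraries (KM12 and LS174T, each as culture and as xenograft tumor, in 2 GNAS states) was sequenced from oligo(dT)-selected mRNA, per the labels' protocols. The authors deposited 1 table of raw read counts per gene. Reads were processed with STAR 2.7.2b and HTSeq 0.11.0 against hg38 and GRCm39, per the submitters' processing notes. The annotation release, the strand setting and how mouse reads were treated are not given in the sources used here, so overlapping or antisense genes cannot be told apart. Gene identifiers were matched to symbols and GRCh38 positions through GENCODE 29, which named 56753 of 60483 genes (93.8%) holding 99.96% of counts. Promoter sequences are RefSeq's (GRCh38.p14).

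Counts were fitted in R 4.3.3 with edgeR 4.0.16 (TMM scaling, robust quasi-likelihood F test, Benjamini-Hochberg adjustment over all 15533 genes, threshold 0.05). The xenograft fit had 2 residual degrees of freedom and compared KM12 with LS174T, and the cultures were fitted the same way. The interaction of line and environment used all 8 libraries (4 residual degrees of freedom). The fitting code was also run on simulated data, with the outcome not reported here. CPM are counts scaled to the total in tested genes times the TMM factor. A log2 difference is KM12 minus LS174T, and its ± is the SE of the fit. For a gene with 0 counts in a line, only a bound is given, from a floor of 3 counts over both libraries, and for 1 to 3 counts the ratio with its exact 95% counting interval. Bounds and intervals cover counting error only. Tumor libraries held 15924846 to 23124811 counts. DESeq2 1.42.0, limma-voom (limma 3.58.1), other scaling and filters, a GNAS state block and leaving out each library were tried.

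Named genes are GNAS, the 15 largest and 8 most abundant differences per direction, up to 5 called members of each of 37 gene lists and 8 marker lists, the 6 smallest interaction p per direction, and list members over 4-fold apart within a line. Some genes that this rule names are not reported here. The members and lists were chosen with earlier results of these data known, and genes named beyond the rule were chosen after their values were seen.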

Additional observations from a re-analysis of the deposited data

Results flagged for a closer look

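The line difference (log2 KM12 minus LS174T) differed between xenografts and cultures at the genes below, by a test of the interaction over all 8 libraries (edgeR quasi-likelihood, Benjamini-Hochberg adjusted p below the threshold for each). Values are the xenograft difference minus the culture difference. Greater and smaller refer to this signed value and not to the size of the gap between the lines. For PIGR and AKR1C2 the lines stood closer in xenografts than in culture, and for BNIP3 they stood farther apart. The 2219 genes called in this test were 14.3% of those tested.

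Greater in xenografts were the interferon-stimulated genes IFI6 (5.54), OASL (5.78), IFI44 (5.73), OAS2 (8.62), IFIT1 (6.21) and XAF1 (8.21). OASL was at 7.73 and 13.3 CPM in KM12 and 5.98 and 4.01 CPM in LS174T in the tumors and at 1.82 and 2.72 CPM in KM12 and 63.0 and 54.0 CPM in LS174T in culture. The secretory genes MUC5AC (6.43), MUC2 (6.41), TFF2 (3.56), SPINK4 (5.33) and LYZ (5.65) were also greater in xenografts, and so were the IgA carrier PIGR (6.08) and the reductases AKR1C1 (7.71) and AKR1C2 (5.32). MUC2 was at 25.8 and 4.85 CPM in KM12 and 3116 and 3167 CPM in LS174T in culture, where the lines stood farther apart than in the tumors. KRT17 (7.22), IGFBP3 (4.29), CD109 (4.90), TSPAN8 (2.38), GALNT6 (3.00) and URB1, a ribosome biogenesis gene (1.90), were the others. KRT17 was at 3.76 and 1.36 CPM in KM12 and 129 and 112 CPM in LS174T in culture.

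Smaller in xenografts were the ATF4-related genes ASNS (-2.48), PHGDH (-2.28), ATF4 (-1.44), TRIB3 (-2.94) and DDIT4 (-4.41), and the hypoxia genes VEGFA (-3.34), ADM (-3.68), ALDOC (-2.02), BNIP3 (-2.17) and NDUFA4L2 (-11.86). FBP1 (-5.34), RGMB (-3.57), WDR72 (-4.59), ITPKA (-7.27), MLXIPL (-5.22), TGFB1 (-4.75) and BEST2 (-7.28) were also smaller.

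The interaction of LYZ and AKR1C1 did not pass without any 1 of the 4 culture libraries (adjusted p 0.061 to 0.11 for LYZ and 0.060 to 0.11 for AKR1C1). That of SPINK4 did not pass without any 1 of the 4 LS174T libraries (adjusted p 0.060 to 0.12), and that of MUC2 did not pass without any 1 of those or the KM12 knockout culture (adjusted p 0.050 to 0.082). With GNAS state as a further term, the interactions of MUC2 and SPINK4 did not pass (adjusted p 0.071 and 0.057).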

How the results depend on the processing

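In the xenografts 3517 genes were called. DESeq2 called 4332, limma-voom 3595 and RLE scaling 3499, a filter at 5 CPM left 2509, and a block for GNAS state gave 3751. With no filter on low counts 5390 were called, and with all 8 libraries in 1 fit, which has more residual degrees of freedom, 6031. Leaving out 1 library gave 947 (LS174T Dox(-)) to 4723 (KM12 knockout), with 1119 without LS174T Dox(+), and the lone library of a line was then assumed to vary like the other pair. Genes called at 4-fold or more numbered 1974, 3047 with no filter and 1124 at 5 CPM, and 863 to 2338 with 1 library left out. The cultures gave 9915 calls, and 8839 to 9200 with 1 library left out. The interaction gave 2219, DESeq2 3125 and limma-voom 2332, with 559 (without the LS174T Dox(-) culture) to 3354 (without the KM12 knockout xenograft) when 1 library was left out, and 624 to 695 without any other culture.

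For the lists, leaving out 1 library gave 10 to 23 lower hypoxia genes (22 with all), 6 to 22 higher HOX genes (17) and 7 to 10 lower metallothioneins (9). It gave 10 to 26 lower drug metabolism genes (21) and 8 to 13 lower Wnt target and crypt progenitor genes (9). In the interaction it gave 12 to 27 greater interferon genes (23), 11 to 17 smaller ATF4 genes (15) and 7 to 17 smaller hypoxia genes (13). The cause of these shifts was not tested. Of 342 results of named genes (305 xenograft differences and 37 interactions), 127 fell below the threshold without LS174T Dox(-), 112 without LS174T Dox(+), 10 without the KM12 knockout tumor and 8 without the KM12 parental tumor, 17 under the GNAS state block, 8 under limma-voom and 0 under DESeq2, and 0 reversed under any alternative. No paired analysis by replicate number was possible because the labels give no such numbers, and the block for GNAS state pairs libraries by state alone. Another scaling moved the median log2 difference of all genes only from 0.00082 to -0.0044. Depth limits genes near 1 CPM, where a few counts decide a fold.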

Other observations

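Called genes were not spread evenly over the chromosomes, and copy number was not measured. On chromosome 18, 89 of 209 tested genes (42.6%) were lower in KM12 and 8.61% higher, beside 13.1% lower and 9.55% higher over all chromosomes. SMAD2 and SMAD4, the signal carriers of TGF-beta that lie there, were both lower, SMAD2 at 42.4 and 45.6 CPM in KM12 and 116 and 98.8 CPM in LS174T (log2 difference -1.29 ± 0.20, adjusted p 0.0048). The SMAD2 call did not hold without the LS174T Dox(-) library, nor the SMAD4 call without either LS174T library. On chromosome 12 the direction was the other, with 169 of 849 genes (19.9%) higher in KM12 and 7.54% lower. Chromosome 8 had 16.6% higher and chromosome 20 had 14.9% higher, while chromosome 6 had 20.3% lower. On the X chromosome 15.1% of genes were at least 4-fold lower in KM12 and 3.56% at least 4-fold higher, beside 7.52% and 5.19% over all genes. Neighbouring genes are not independent, and these shares are descriptions.

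The knockout and parental KM12 tumors differed at least 4-fold at 198 of the 11698 genes with a mean of 5 CPM or more, and the LS174T tumors at 41. Among genes chosen after their values were seen, higher in the knockout tumor were MYO7B (3.09 and 118 CPM, parental then knockout), LGALS4 (84.5 and 845 CPM) and CLDN18 (1.55 and 50.5 CPM). Lower there were ASCL2 (21.7 and 2.28 CPM), SMOC2 (88.7 and 6.72 CPM), PROM1 (50.7 and 0.688 CPM) and the secreted mucin MUC5B (216 and 2.17 CPM). With 1 library a state, no test was made.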
